A study of Mus musculus with 10 samples.

Results

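Heat shock proteins and their J-domain co-chaperones are the cell's main machinery for folding and refolding proteins. The genes described here are the protein-coding genes whose symbol begins with Hspa, Hspb, Hspd, Hspe, Hsph, Hsp90, Dnaja, Dnajb or Dnajc, together with Hsf1, Hsf2, Stip1, Bag3 and Stub1. Of 78 genes with such a symbol, 63 had a mean of at least 1 FPKM over all libraries and form the module, among 15905 genes tested at that minimum. Every level is in FPKM, fragments scaled by transcript length and by the size of the library.

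RNA from mouse striatum, the deep forebrain nucleus rich in spiny projection neurons, was sequenced at 11 weeks of age. The R6/2 group held 5 libraries from hemizygous mice carrying the R6/2 transgene, which expresses the first exon of human huntingtin with an expanded CAG repeat from the human promoter and is a widely used model of Huntington's disease. The control group held 5 libraries from isogenic wild-type mice. Whether the libraries of a group came from separate animals is not stated in the labels, so a p-value here refers only to the scatter among these libraries, part of which may be technical.

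HSP70 proteins bind exposed hydrophobic stretches of unfolded proteins in a cycle driven by ATP. J-domain proteins deliver substrates and switch on the ATPase, and HSP110 proteins and BAG or HspBP1 factors release the nucleotide. HSP90 matures signalling proteins at a later stage, small heat shock proteins hold unfolded proteins without ATP, and heat shock factor 1 drives transcription of many of these genes under stress. In models of polyglutamine disease these chaperones are studied because they act on aggregation-prone huntingtin.

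Promoter sequence is shown for some members with a match to a stress motif, picked as stated below, so that their motifs can be set beside their values. RefSeq windows on GRCm38.p6, each covering 250 bases before and 50 bases after a start, were found for 51 of the 63 members. Both strands were searched for the heat shock element as GAANNTTC or TTCNNGAA (a pair of units) and as these patterns overlapping in a shared TTC or GAA (3 units). The 3-unit form lay in 6 of 68 member windows (8.82%) and in 0.603% of all 32851 windows. Its member genes were Hspe1, Hspd1, Dnajb6 and Hsph1, and their windows follow, written 5′ to 3′ with the match in capitals. Dnajb6 and Hsph1 each had 2 overlapping windows with the same match, so the 6 windows are not 6 separate sites. Hspe1 and Hspd1 encode the mitochondrial chaperonin pair and are read in opposite directions from one shared promoter, so the capitals in the first pair are the same bases on opposite strands.
Hspe1, chr1:55088048-55088147, plus strand: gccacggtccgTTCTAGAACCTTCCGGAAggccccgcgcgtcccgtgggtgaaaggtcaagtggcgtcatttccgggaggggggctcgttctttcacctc
Hspd1, chr1:55087933-55088086, minus strand: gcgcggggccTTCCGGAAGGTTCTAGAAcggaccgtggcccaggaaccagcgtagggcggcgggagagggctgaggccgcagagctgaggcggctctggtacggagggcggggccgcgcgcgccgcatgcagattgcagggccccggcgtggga
Dnajb6, chr5:29735798-29735897, plus strand: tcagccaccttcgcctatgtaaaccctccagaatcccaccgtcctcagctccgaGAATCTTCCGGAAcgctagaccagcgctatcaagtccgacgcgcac
Hsph1, chr5:149636280-149636309, minus strand: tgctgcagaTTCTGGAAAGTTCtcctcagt
The first 3 stretches end just before a RefSeq start, and the Hsph1 match lies after one. The pair form was in 22.1% of member windows and 15.1% of all windows, so it is common. Its members included Hspb6, which is shown because that gene had the largest rise of the module.
Hspb6, chr7:30553171-30553300, plus strand: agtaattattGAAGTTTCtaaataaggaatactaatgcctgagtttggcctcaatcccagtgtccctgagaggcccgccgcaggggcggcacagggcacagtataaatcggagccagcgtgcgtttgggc
A further search, chosen after values had been seen, was for the endoplasmic reticulum stress element, CCAAT, a gap of 9 bases, then CCACG, on either strand. It lay in 4.41% of member windows and in 0.119% of all windows. The member genes were Hsp90b1, Hspa5 and Dnajc3. Hsp90b1, with 2 matches on opposite strands, and Hspa5 are shown because their levels are compared.
Hsp90b1, chr10:86705445-86705666, minus strand: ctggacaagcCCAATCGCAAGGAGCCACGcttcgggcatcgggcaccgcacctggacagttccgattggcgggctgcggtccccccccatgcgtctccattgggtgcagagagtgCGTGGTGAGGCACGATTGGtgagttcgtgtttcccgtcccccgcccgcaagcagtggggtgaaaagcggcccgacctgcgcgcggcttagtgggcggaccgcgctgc
Hspa5, chr2:34771990-34772089, plus strand: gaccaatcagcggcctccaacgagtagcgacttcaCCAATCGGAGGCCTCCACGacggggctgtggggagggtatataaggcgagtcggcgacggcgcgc
Hsp90aa1, Dnajb1 and Hspa8 were not among the members with either heat shock form. Whether windows were found for them is not stated here, so this is not read as a lack of the element. A match here is a description of letters and no evidence of binding.

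Few members changed in R6/2 striatum. Among the 63 genes, 3 rose (Hspb6, Hspa13 and Dnajc27) and 5 fell (Hsp90b1, Hsph1, Dnajb5, Dnajc7 and Dnajc2) at a limma adjusted p of 0.05, and 55 did not pass. That is 12.7% of members, beside 14.1% of all tested genes, of which 5.0% rose and 9.11% fell. The members' median difference was -0.02 on the log2(FPKM + 1) scale, R6/2 minus control, beside 0.00 for all genes, and single members ranged from -1.25 to 0.83. The 5 libraries of one group lay wholly on one side of the other group's for 4 members above and 5 below, and such separation occurred in 13.1% of all genes. The share of members called was near that of all genes under each of these measures.

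The balance of rises and falls depended on how libraries were scaled, for all genes and for the members, but not to the same extent. With protein-coding genes brought to the same total in every library, 10 of the 63 members rose and 4 fell. Of all 15905 genes 1522 rose and 1136 fell (16.7% called), where the scaling as deposited gave 795 and 1449. With quantile normalization 8 of the 63 members rose and 2 fell. Among all genes falls still outnumbered rises there, at 1277 and 1111 (15.0% called). Whether members differ from other genes in this was not tested. Protein-coding totals were 193203 to 202906 FPKM in R6/2 and 211209 to 219426 in control libraries, which is the size of the difference that the first of these removes. A fit with a cortical signal as covariate, the mean standardised level of 5 cortical neuron markers, kept 1 rise (Hspb6) and 1 fall (Dnajc2), beside 4.75% of all genes. That signal was -0.06 to 1.35 in R6/2 and -1.49 to 0.06 in control libraries, and its part in the calls was not tested. With the replicate number as a block, in which 8.46% of all genes were called, 1 member rose (Hspb6) and 2 fell (Hsp90b1 and Dnajc2).

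**Figure D1:**
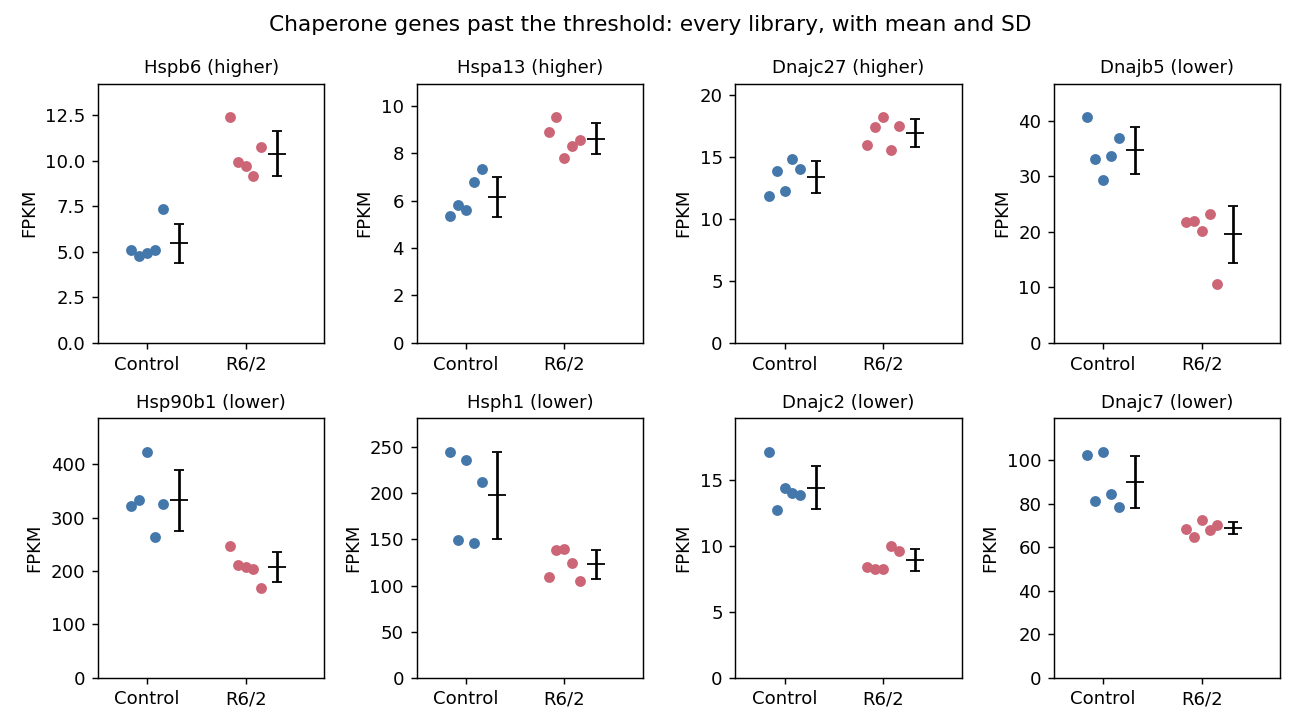
FPKM (vertical axes, from 0) of the 8 members past the threshold in each of the 5 control (blue) and 5 R6/2 (red) libraries, with bars for the mean and SD. In each panel the libraries of the groups do not overlap, from Hspb6 at 4.79 to 7.37 against 9.18 to 12.4 down to Dnajc7 at 78.5 to 104 against 64.8 to 72.4.

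The tissue identity was checked on marker genes. All 10 tested markers of striatal spiny neurons fell, from a summed 1665 to 2120 FPKM in control to 215 to 354 in R6/2 libraries, and 4 of 7 oligodendrocyte, 2 of 7 astrocyte and 1 of 6 microglial markers also fell. Cortical neuron markers summed to 24.7 to 51.9 FPKM in control and 51.3 to 89.6 in R6/2 libraries. None of 7 endothelial or mural markers (0 also at an unadjusted p under 0.05, limma) and none of 5 ependymal or choroid markers (1 at that level) passed. Of 5 blood cell markers 2 fell, with sums of 24.7 to 41.9 FPKM in control and 10.2 to 20.7 in R6/2. No listed marker was at 0 in all libraries. In bulk tissue, fewer cells of a type and less RNA per cell cannot be told apart, for the chaperones as for the markers, and the part of these marker differences in the chaperone calls was not tested.

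The most abundant members in control striatum were cytosolic and endoplasmic HSP90 proteins and the HSP110 protein Hsph1. The 10 highest held 67.1% of all member FPKM there. In controls Hsp90b1 stood first at 333 FPKM, followed by Hsp90ab1 at 231, Hsph1 at 198, Hsp90aa1 at 176 and Hspa8 at 112, and each overlapped its neighbour in range. In R6/2 the order of means was Hsp90ab1, Hsp90aa1, Hsp90b1, Hsph1, Hspa4 and then Hspa8. The place of Hspa8 there rests on R6/2 4, since its R6/2 median was 31.4 FPKM, below the medians of Dnajb11, Dnajc7, Hspa5, Dnajb1, Dnajc6, Dnaja2 and Dnajc5. The members together summed to 1888 to 2249 FPKM in control and 1807 to 2065 in R6/2 libraries, or 0.892 to 1.05% and 0.908 to 1.05% of protein-coding FPKM.

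**Figure D2:**
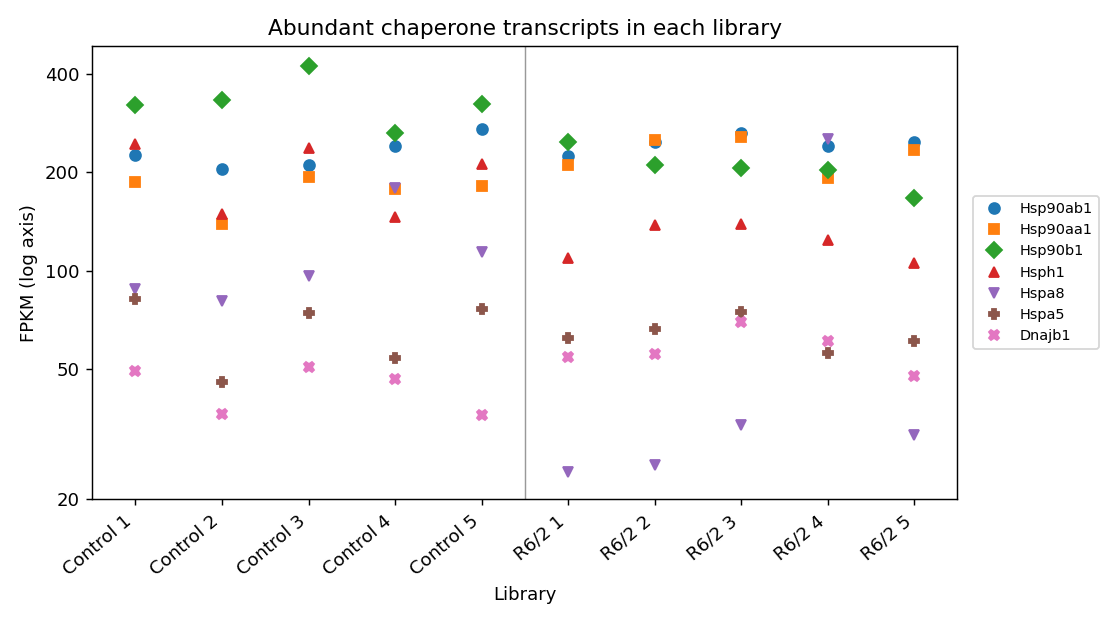
FPKM (log axis) of 7 abundant chaperones in each library, control on the left and R6/2 on the right. Hsp90b1 is the highest in all 5 control libraries and in R6/2 1, and Hspa8 at 253 FPKM in R6/2 4 stands above its other R6/2 values of 24.3 to 33.8.

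Among the transcription factors, Hsf1, the stress-activated heat shock factor, was 8.77, 10.2, 12.9, 10.5 and 9.53 FPKM in controls 1 to 5 and 12.8, 11.7, 10.7, 11.1 and 13.3 in R6/2 1 to 5. The ranges overlapped, and the difference of 0.19 (95% interval -0.04 to 0.43) did not pass (limma adjusted p = 0.285). Hsf2, a related factor active in development and in proteotoxic stress, was 5.05, 5.06, 5.07, 6.02 and 7.72 in control and 6.82, 8.14, 8.75, 7.65 and 7.84 in R6/2 libraries. Control 5 lay within the R6/2 range and the other 4 controls below it. Its difference was 0.39 (0.13 to 0.66), with a limma adjusted p of 0.0529, and it passed in 3 of 21 settings. Without control 5 it was 0.49 (limma adjusted p = 0.00726), while leaving out any other library gave 0.36 to 0.44 (adjusted p from 0.0581 to 0.118) and the cortical covariate 0.21 (adjusted p = 0.516).

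In the HSP90 group, Hsp90aa1 encodes the stress-inducible cytosolic HSP90 and Hsp90ab1 the constitutive form. Hsp90aa1 was 187, 139, 194, 178 and 181 FPKM in controls and 211, 252, 257, 193 and 234 in R6/2. The groups overlapped only through R6/2 4 and control 3. The difference of 0.38 (0.13 to 0.64) had a limma adjusted p of 0.0515. It passed in 5 of 21 settings, among them without R6/2 4 (0.44, adjusted p = 0.033), under protein-coding rescaling (0.50, adjusted p = 0.0113) and under quantile normalization (0.49, adjusted p = 0.0173). It did not pass in the other 16, where the limma adjusted p ran from 0.0515 as reported to 0.289 with the cortical covariate (0.37). Hsp90ab1 was 204 to 271 FPKM (median 226) in controls and 224 to 264 (median 248) in R6/2, a difference of 0.09 (-0.11 to 0.29, limma adjusted p = 0.547). Stip1, which links HSP70 to HSP90, was at 28.3 ± 3.22 and 30.9 ± 2.53 FPKM (SD, n = 5) and Stub1, the ubiquitin ligase that works with both, at 2.04 ± 1.10 and 1.76 ± 0.531. Neither passed.

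Among cytosolic HSP70 proteins, Hspa8 encodes HSC70, the constitutive cytosolic HSP70. Its levels in controls 1 to 5 were 88.2, 81.1, 96.4, 179 and 114 FPKM, and in R6/2 1 to 5 24.3, 25.4, 33.8, 253 and 31.4. Thus 4 R6/2 libraries lay below every control and R6/2 4 above every control. With all libraries the difference was -1.25 (-2.59 to 0.08, limma adjusted p = 0.212). Without R6/2 4 it was -1.88 with a limma adjusted p of 0.00144, in a fit that called 12.4% of all genes. That library was the only R6/2 one not below every control. Leaving it out therefore sets the groups apart, and this p-value adds no support for a fall. Hspa8 passed in 1 of 21 settings. Small nucleolar RNA genes of the Snord14 family overlap its annotated exons, and their listed values did not follow those of Hspa8. Snord14c was highest in R6/2 4 at 373 FPKM but also 313 in control 3, 289 in R6/2 3 and 233 in R6/2 1, and Snord14e was 41.9 in R6/2 4 and up to 313 elsewhere. Both were 0 in R6/2 2, so their values swing too widely to be set against those of Hspa8. Whether the overlap affected the Hspa8 estimate was not tested.

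Hsph1 (chr5:149614287-149636376, ENSMUSG00000029657.15), an HSP110 protein that releases nucleotide from HSP70 and helps dissolve aggregates, fell. Its levels were 245, 149, 237, 146 and 213 FPKM in controls and 109, 138, 139, 124 and 105 in R6/2. Every R6/2 library was below every control, with 2 controls close above. Its mean was 198 ± 47.4 in control and 123 ± 15.7 FPKM in R6/2 (SD, n = 5), a difference of -0.65 (-1.03 to -0.27, limma adjusted p = 0.0305). The call held in 11 of 21 settings. It was lost without control 1, control 3, control 5, R6/2 1, R6/2 4 or R6/2 5, with a limma adjusted p from 0.0593 to 0.0735. It was also lost with quantile normalization (limma adjusted p = 0.0565), no filter on low values (0.052) and the replicate block (0.092). With the cortical covariate the difference was -0.47 (limma adjusted p = 0.341). The other members of the group did not pass: Hspa4, another HSP110 protein, was 90.6 ± 8.70 and 96.6 ± 8.26 FPKM and Hspa4l 32.9 ± 5.56 and 29.1 ± 1.99. The exchange factor Bag3, which also routes clients to autophagy, was 1.82 ± 0.340 and 1.69 ± 0.121, and Hspbp1 was 3.22 ± 2.57 and 3.44 ± 2.13. Among the remaining HSP70 genes, Hspa2 was 4.13 ± 0.337 and 5.20 ± 0.660 FPKM (limma adjusted p = 0.0864), Hspa12b 2.01 ± 0.709 and 1.25 ± 0.142 (adjusted p = 0.195) and Hspa12a 20.7 ± 1.32 and 20.3 ± 1.67 (adjusted p = 0.85).

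The classic inducible HSP70 genes were at low levels in both groups and were not tested. Hspa1a was 0.0474 to 1.29 FPKM in controls and 0.431 to 0.932 in R6/2, and Hspa1b 0.151 to 0.633 and 0.0326 to 0.328. These genes are nearly identical, so their separate values are uncertain. Hspb1, the small heat shock protein HSP27, was also under the minimum at 0.187 to 0.988 and 0.242 to 1.11 FPKM. Of the 15 genes below the minimum, the one nearest it was Hspa1l at a mean of 0.932, and the lowest member above it was Hspbap1 at 1.58. Hspb2, Dnajc5b and Dnajc5g were listed at 0 in every library. The remaining 8, Hspb3, Hspb7, Hspb9, Dnajb3, Dnajb7, Dnajb8, Dnajb13 and Dnajc22, had group means of at most 0.556 FPKM.

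Of the small heat shock proteins, Hspb6 (chr7:30552178-30555443, ENSMUSG00000036854.14), the small heat shock protein HSP20, rose the most of all members. Its levels were 5.13, 4.79, 4.95, 5.09 and 7.37 FPKM in controls and 12.4, 9.97, 9.74, 9.18 and 10.7 in R6/2. Control 5 was the highest control and still below all R6/2 libraries. The mean went from 5.47 ± 1.07 to 10.4 ± 1.24 FPKM (SD, n = 5), a difference of 0.83 (0.56 to 1.10, limma adjusted p = 0.00152). It passed in all 21 settings, with a limma adjusted p from 0.000371 to 0.036. Its exons overlap Lin37 on the other strand, which was 35.1 ± 2.24 and 36.8 ± 10.2 FPKM (limma adjusted p = 0.956). Lin37 was thus more abundant than Hspb6, and ran from 25.8 to 50.4 FPKM in R6/2. Reads within the bases shared with Lin37 could not be told apart if strand was not used. Whether this affected the Hspb6 estimate was not tested. Hspb8, which pairs with Bag3, was 3.28 ± 0.682 and 2.44 ± 0.562 FPKM and did not pass.

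In the endoplasmic reticulum, Hsp90b1 (chr10:86690209-86705509, ENSMUSG00000020048.13) encodes GRP94, the HSP90 of this compartment, and fell. Its levels were 321, 332, 423, 263 and 325 FPKM in controls and 247, 211, 207, 204 and 167 in R6/2. The lowest control stood just above the highest R6/2 library. The group means were 333 ± 57.2 and 207 ± 28.4 FPKM (SD, n = 5), a difference of -0.68 (-0.98 to -0.37, limma adjusted p = 0.0094). It did not pass with quantile normalization (-0.53, adjusted p = 0.051) or with the cortical covariate (-0.53, adjusted p = 0.171). Hspa5, which encodes BiP and, like Hsp90b1, carries the stress element shown above, was 66.5 ± 15.6 and 64.1 ± 6.88 FPKM, a difference of -0.02 (-0.39 to 0.34, limma adjusted p = 0.953).

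Hspa13 (chr16:75745431-75767104, ENSMUSG00000032932.14), a microsome-associated HSP70 relative, rose. Its levels were 5.35, 5.82, 5.58, 6.76 and 7.33 FPKM in controls and 8.91, 9.51, 7.81, 8.30 and 8.57 in R6/2. The gap between the groups was smaller than the SD of either. Mean levels were 6.17 ± 0.841 and 8.62 ± 0.638 FPKM (SD, n = 5), a difference of 0.43 (0.22 to 0.64, limma adjusted p = 0.0143). With the cortical covariate it was 0.31 (adjusted p = 0.231). The J-domain partners of BiP did not pass: Dnajb11 was 71.8 ± 6.96 and 67.6 ± 12.4, Dnajb9 8.95 ± 1.70 and 10.4 ± 2.79, Dnajc3 7.84 ± 0.564 and 7.25 ± 0.529, Dnajc10 15.3 ± 2.86 and 11.9 ± 2.35 and Dnajc1 17.1 ± 2.25 and 14.9 ± 1.99 FPKM. In a wider list of 18 endoplasmic reticulum folding genes, without Hspa13, 0 rose and 2 fell, beside 5.0% and 9.11% of all tested genes. The 2 were Hsp90b1 and Sil1, a nucleotide exchange factor of BiP. Sil1 went from 2.99 ± 0.678 to 1.76 ± 0.393 FPKM (limma adjusted p = 0.0485, called in 6 of 20 settings). The median difference of the list was -0.11, and its counts are not read as a trait of the list.

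None of the 9 mitochondrial members passed (limma, adjusted p from 0.0567), and 1 had an unadjusted p under 0.05. As 14.1% of all tested genes were called, 0 among so few genes is not read as a trait of them. Hspa9, the matrix HSP70, was 25.1 ± 2.24 and 27.2 ± 4.28 FPKM, the chaperonin Hspd1 14.8 ± 1.78 and 14.3 ± 1.64 and its partner Hspe1 6.68 ± 1.02 and 8.43 ± 2.52. Thus the 2 genes that share the promoter shown above did not pass in either direction. Dnajc30 was 4.34 ± 0.458 and 5.40 ± 0.307 FPKM, with every R6/2 library above every control and a limma adjusted p of 0.0567. The other 5, Dnaja3, Dnajc11, Dnajc15, Dnajc19 and Dnajc28, differed by -0.48 to 0.19. In a list of 13 mitochondrial folding genes, some of them members, 0 passed with limma in either direction (1 at an unadjusted p under 0.05). Their median difference was 0.04, and the same limit holds for this small list.

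Among the other J-domain proteins of classes A and B, Dnajb5 (chr4:42949814-42959425, ENSMUSG00000036052.14), a class B J-domain protein, fell. Its levels were 40.6, 33.1, 29.3, 33.6 and 36.9 FPKM in controls and 21.9, 22.0, 20.2, 23.3 and 10.6 in R6/2. R6/2 5 was the lowest library by a wide gap, and the other 4 were also below every control. Group means were 34.7 ± 4.26 and 19.6 ± 5.15 FPKM (SD, n = 5), a difference of -0.83 (-1.28 to -0.39, limma adjusted p = 0.0204). Without R6/2 5 the difference was -0.64 and it still passed, while without control 1 it was -0.78 with a limma adjusted p of 0.0539. Dnajb1, the partner of stress-inducible HSP70, was 36.1 to 50.7 FPKM (median 46.6) in controls and 47.8 to 70.0 (median 55.5) in R6/2, a difference of 0.39 (0.09 to 0.69, limma adjusted p = 0.0833), and it passed in 2 of 21 settings, protein-coding rescaling and quantile normalization (0.50 in both). Dnajb6, a suppressor of polyglutamine aggregation in cell models, was 9.31 ± 3.80 and 7.12 ± 1.47 FPKM, a difference of -0.28 (-0.85 to 0.30, limma adjusted p = 0.533). The class A genes Dnaja1, Dnaja2 and Dnaja4 differed by -0.02 to 0.04, and Dnajb2, Dnajb4, Dnajb12 and Dnajb14 by -0.22 to 0.08; none passed.

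Dnajc7 (chr11:100582818-100620168, ENSMUSG00000014195.15), a TPR co-chaperone that binds both HSP70 and HSP90, fell. Its levels were 102, 81.2, 104, 84.5 and 78.5 FPKM in controls and 68.1, 64.8, 72.4, 67.8 and 70.1 in R6/2. The groups were apart by a small margin. The mean went from 90.1 ± 12.04 to 68.6 ± 2.81 FPKM (SD, n = 5), a difference of -0.38 (-0.58 to -0.17, limma adjusted p = 0.0233). It did not pass under quantile normalization (-0.24, adjusted p = 0.158) or protein-coding rescaling (-0.26, adjusted p = 0.0823), and without R6/2 2 its limma adjusted p was 0.0506. Some of its exon bases overlap the myelin gene Cnp on the other strand, which was 64.1 ± 6.63 and 49.5 ± 8.80 FPKM (-0.38, limma adjusted p = 0.0788). Reads within the overlapping bases could not be told apart if strand was not used.

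Dnajc27 (chr12:4082583-4110606, ENSMUSG00000020657.15), a J-domain protein with a Rab-like GTPase domain, rose. Its levels were 11.8, 13.9, 12.2, 14.8 and 14.1 FPKM in controls and 15.9, 17.4, 18.2, 15.5 and 17.5 in R6/2. The lowest R6/2 library was just above the highest control. On average it was 13.4 ± 1.28 in control and 16.9 ± 1.13 FPKM in R6/2 (SD, n = 5), a difference of 0.32 (0.14 to 0.50, limma adjusted p = 0.0273). The call was lost without control 1, control 3, R6/2 2, R6/2 3 or R6/2 5, with a limma adjusted p from 0.0501 to 0.056, and with the cortical covariate (0.15, adjusted p = 0.401). Dnajc12, Dnajc14, Dnajc16, Dnajc18, Dnajc25 and Dnajc4, also class C, did not pass and differed by -0.13 to 0.47.

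At the ribosome and in the nucleus, Dnajc2 (chr5:21757267-21785251, ENSMUSG00000029014.14), which encodes the ribosome-associated J-domain protein MPP11, fell. Its levels were 17.1, 12.7, 14.4, 14.0 and 13.9 FPKM in controls and 8.39, 8.26, 8.22, 9.98 and 9.58 in R6/2. All R6/2 libraries were below 10 FPKM and all controls above it. The averages were 14.4 ± 1.62 and 8.89 ± 0.832 FPKM (SD, n = 5), a difference of -0.64 (-0.84 to -0.43, limma adjusted p = 0.00148). It passed in all 21 settings, with a limma adjusted p from 0.00103 to 0.0385. Dnajc8, a splicing-associated member, was 17.0 ± 3.30 and 11.8 ± 2.33 FPKM (-0.49, limma adjusted p = 0.0776), and Dnajc9, Dnajc17, Dnajc21 and Dnajc24 differed by -0.11 to 0.29 and did not pass.

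At synapses and endosomes, Dnajc5, the cysteine string protein of synaptic vesicles, was 33.9 ± 5.17 and 36.1 ± 1.75 FPKM (limma adjusted p = 0.57). Dnajc6, the neuronal auxilin that uncoats clathrin vesicles with HSC70, was 39.5 ± 3.94 and 51.8 ± 9.04 (0.37, adjusted p = 0.0654), and the endosomal Dnajc13 30.9 ± 3.58 and 27.2 ± 1.62 (adjusted p = 0.235). Hspb11 and Hspbap1, members by symbol only, were 5.24 ± 1.60 and 6.31 ± 2.17, and 1.37 ± 0.210 and 1.79 ± 0.617 FPKM, and did not pass.

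**Figure D3:**
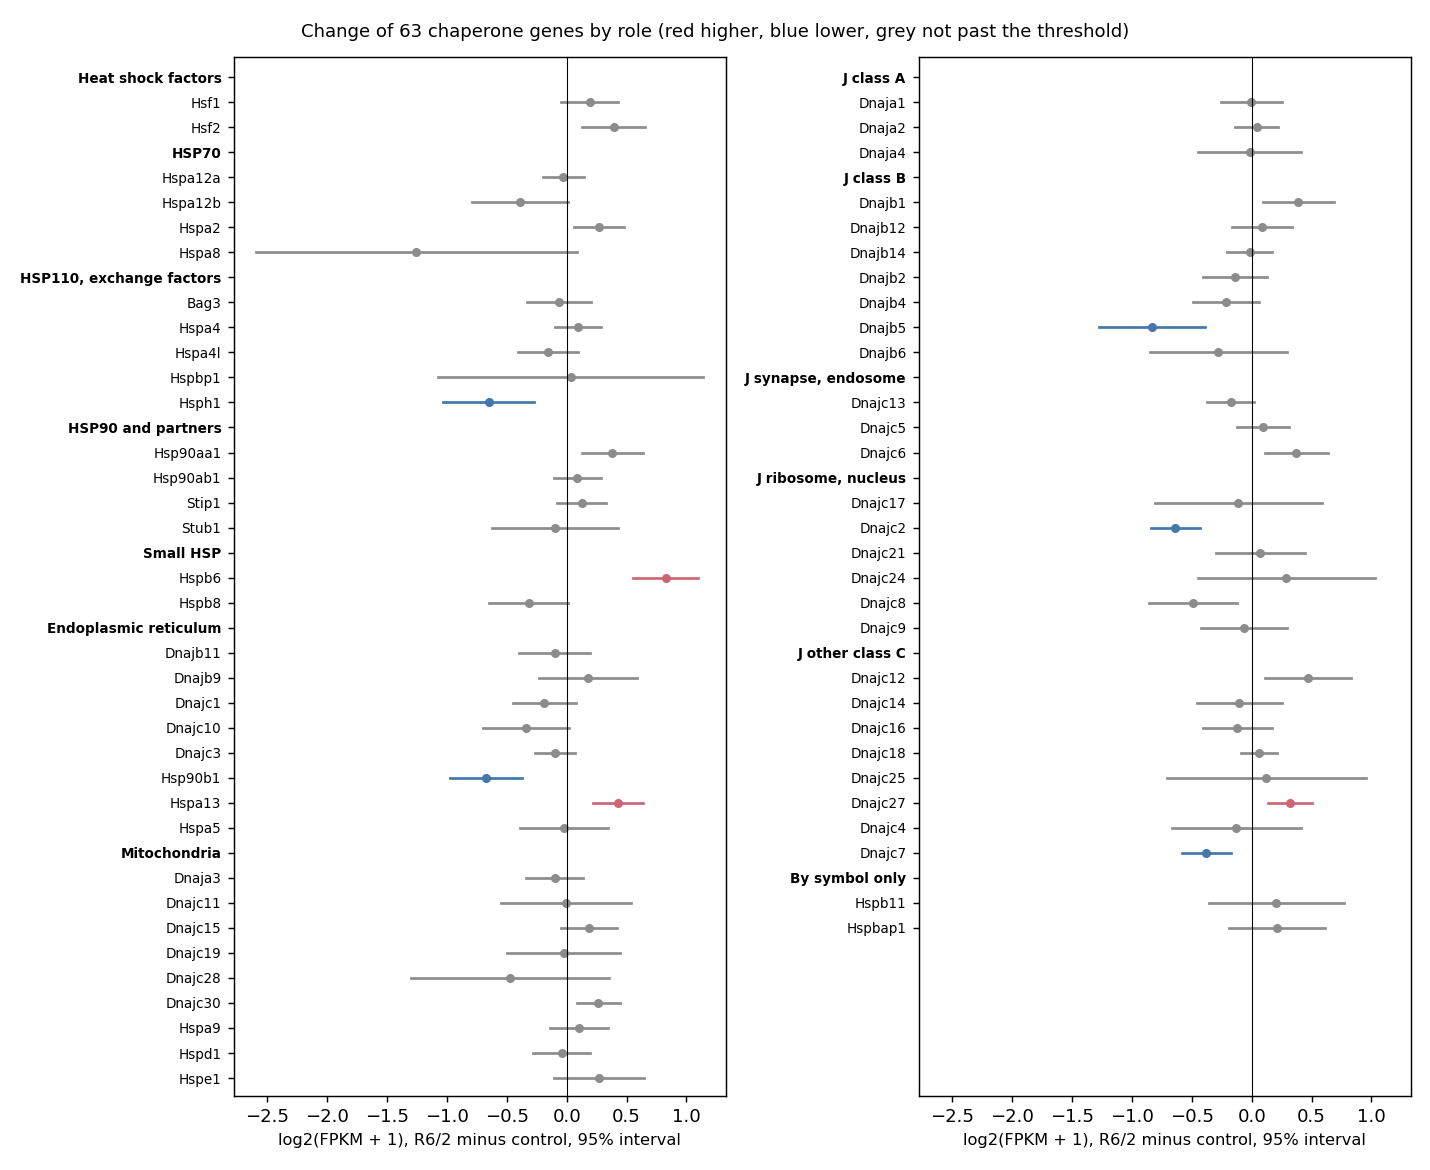
Difference of all 63 members (horizontal axes, log2(FPKM + 1), R6/2 minus control, points, with 95% intervals), grouped by role and coloured red for the 3 that rose, blue for the 5 that fell and grey for the rest. Most grey intervals span 0, and the widest, for Hspa8, runs from -2.59 to 0.08.

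The intervals set what these libraries could show. Of the 55 members that did not pass, 33 had a 95% interval within 1.5-fold of FPKM + 1 in both directions, and 22 reached beyond it. For Hspbp1, Hspa8, Dnajc24 and Dnajc28 it reached beyond 2-fold on that scale. In FPKM itself the intervals of low members, such as Dnajc25, Hspa12b, Dnajc17 and Stub1, are wider. More members would therefore reach beyond these folds in FPKM. The members' median coefficient of variation between libraries was 15.6% in control and 13.8% in R6/2 libraries, beside 22.5% and 22.2% for all tested genes. The genes were not matched by level, so this difference is not read as a trait of the members. Exons of 23 members overlap another annotated gene.

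Co-chaperones outside the module were read from lists assembled with earlier results known. Of 34 tested, 2 rose, 3 fell and 29 did not pass, where 14.1% of all tested genes were called. Of those that passed, 4 are named here. Tomm70a, a mitochondrial import receptor that accepts clients from HSP70 and HSP90, fell, at 33.1 ± 3.56 FPKM in control and 15.8 ± 0.487 in R6/2 (difference -1.01, limma adjusted p = 5.7e-05). Bag5, an exchange factor, fell from 25.7 ± 4.31 to 16.7 ± 1.45 (limma adjusted p = 0.00772). The risers were Bag2 (2.47 ± 1.03 to 4.48 ± 0.834, limma adjusted p = 0.0359, called in 10 of 20 settings) and Ahsa2, an activator of HSP90 (13.1 ± 2.70 to 19.0 ± 2.89, limma adjusted p = 0.041, called in 10 of 21 settings). Of 14 subunits of the cytosolic chaperonin TRiC and of prefoldin, Cct2 rose (26.4 ± 1.77 to 35.3 ± 2.67, limma adjusted p = 0.0055) and the other 13 did not pass. Of 21 tested genes of a heat shock response list, most of them members, Ahsa2 rose and Hsph1 fell.

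**Figure D4:**
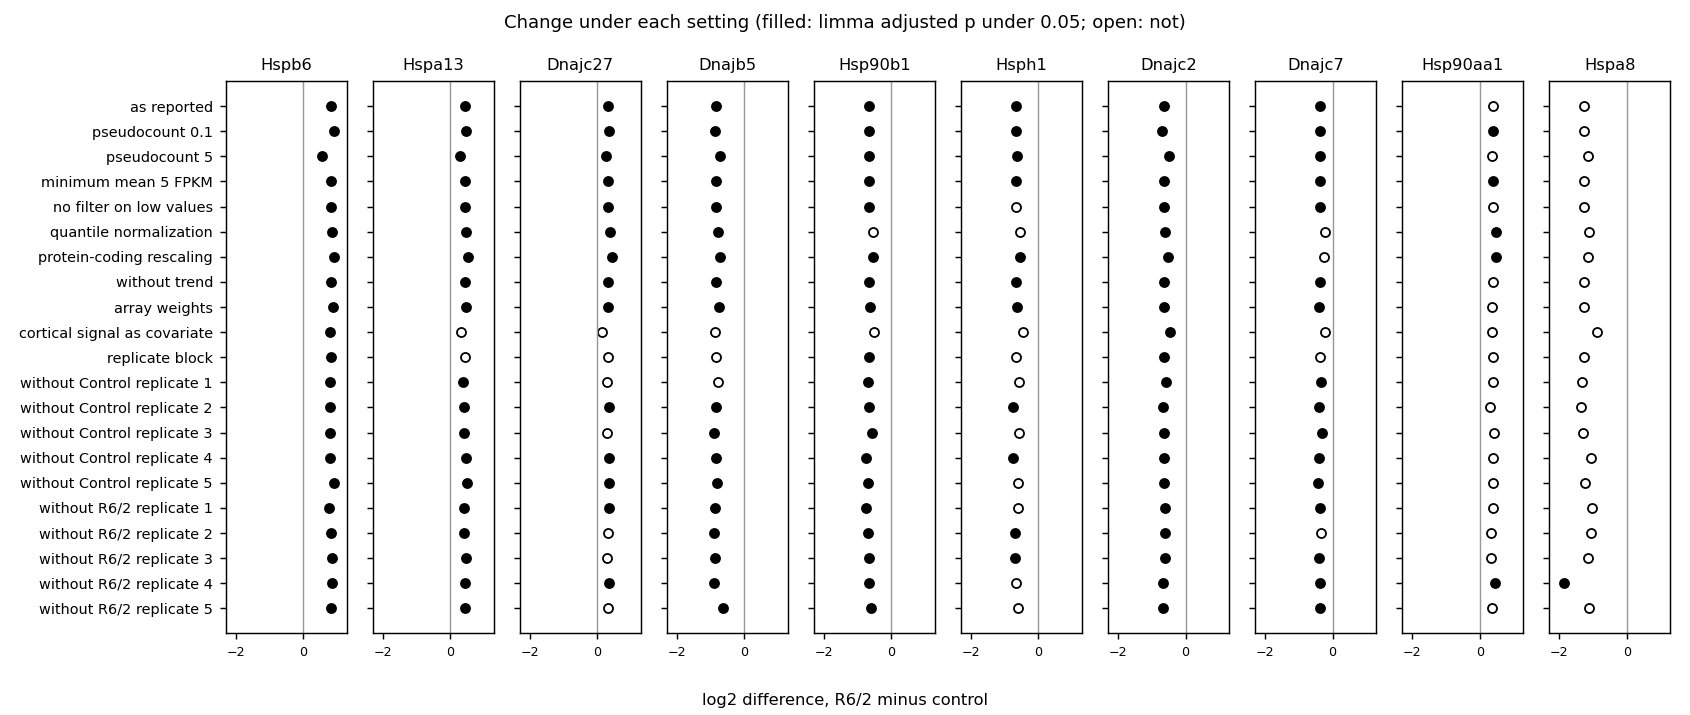
Log2 difference (horizontal axes, R6/2 minus control) of the 8 called members, Hsp90aa1 and Hspa8 under the reported fit and 20 alternatives, filled where the limma adjusted p was under 0.05. Hspb6 and Dnajc2 are filled in all 21 rows, and Hspa8 only without R6/2 4.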

How the data were processed

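The authors deposited 1 table of FPKM values, with 1 column per library; the files hold no counts, so absolute depth is unknown. STAR 2.4.0, Cufflinks, Cuffdiff and build GRCm38 are named per the submitters' processing notes; which tool did which step, which annotation release and which strand setting: not given in the sources used here. Low FPKM steps in genes seen in at most 3 libraries gave a relative depth of 0.754 (R6/2 2) to 1.52 (R6/2 1), with 36.6 to 57.5% of ratios within 0.05 log2 of a common step over 45 pairs.

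Of 47632 rows, 47220 had a symbol in GENCODE vM21 by stable ID, 39102 of them matching in version; 0 columns were without a sample. The 15905 genes averaging 1 FPKM or more across all 10 libraries were tested on log2(FPKM + 1) with limma 3.58.1 in R 4.3.3 (mean-variance trend, 8 residual and 1.77 prior degrees of freedom, two-sided), with Benjamini-Hochberg adjustment over all of them. The log2 scale understates the change of low genes. Alternatives were pseudocounts 0.1 and 5, a minimum of 5 FPKM or none, both rescalings, no trend, array weights, a cortical covariate, a replicate block and leaving out each library. Every member is accounted for by name or range; other genes are named where they passed, at most 4 per list. Some genes that meet this rule are not reported here. The members and lists were chosen with earlier results of these data known.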

Additional observations from a re-analysis of the deposited data

Results flagged for a closer look

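Among 126 groups of 5 libraries (63 members, 2 groups each), 12 had 1 library far from the other 4. About 1 in 20 would be flagged if values were independent and normally spread. The share over all tested genes is not given here, so no excess among the members is read from this. In the R6/2 group Hspa8 was 253 FPKM in R6/2 4 against 24.3 to 33.8 in the others. Dnajc25 was 8.99 FPKM in the same library against 1.08 to 2.09. Dnajb5 was 10.6 FPKM in R6/2 5 against 20.2 to 23.3, and Dnaja4 was 2.09 there against 3.74 to 4.20. Dnaja3 was 5.32 FPKM in R6/2 3 against 6.22 to 6.57, and Dnajc28 was 6.90 in R6/2 1 against 1.98 to 3.39.

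In the control group Hspb6 was 7.37 FPKM in control 5 against 4.79 to 5.13, Dnajc19 was 21.1 there against 10.3 to 12.9, and Dnaja4 was 2.08 there against 3.72 to 4.34. Hspbp1 was 7.73 FPKM in control 1 against 1.25 to 2.49. Stub1 was 3.95 FPKM in control 2 against 1.17 to 1.90, and Dnajc1 was 13.1 in control 4 against 17.5 to 18.7.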

How the results depend on the processing

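Against 3 members higher and 5 lower, quantile normalization gave 8 and 2, protein-coding rescaling 10 and 4, array weights 5 and 6, and the cortical covariate 1 and 1. Leaving out each library gave 2 to 5 higher (5 without control 5) and 3 to 5 lower (3 without control 1). With the replicate number as a block the counts were 1 and 2; same-numbered libraries were not paired, since their deviations correlated at -0.0528 to 0.0495 and only number 5 correlated best with its own number. The remaining settings gave 3 or 4 higher and 4 or 5 lower. Over 20 alternatives and 63 members, 1194 of 1245 calls were unchanged, 29 were lost and 22 gained, and 0 called members changed direction; the cause was not tested. Under a minimum of 5 FPKM 15 members were not tested. Depth in reads is unknown, so no counting interval is given.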
